A study of Mus musculus with 6 samples.

Results

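The genes described are 9 cytokine genes and Nfkbia, taken from the deposited gene count table by symbol, 10 of its 32212 rows. They are the pro-inflammatory Tnf, Il1a, Il1b, Il6, Il18 and Ifng, the anti-inflammatory Il1rn and Il10, Tgfb1, which acts both ways, and Nfkbia, which encodes the NF-κB inhibitor IκBα. Poly(A) RNA from liver was sequenced in 3 WT mice and 3 CgA-KO mice, one library per mouse, all labelled male C57BL/6, 2 yr old and fed normal chow. CgA-KO mice lack Chromogranin A, the pro-hormone that the gene Chga encodes and from which the peptides catestatin and pancreastatin are cut. The loss is in the whole animal, so the liver is compared in mice whose endocrine organs and immune cells also lack the protein. The study compared inflammation between aging WT and CgA-KO mice, and for this it measured liver mRNA of Tnf, Ifng, Ccl2 and Il10 by qPCR relative to Rplp0, and none of those qPCR values is used here.

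The total counts ranged from 10558616 to 31087453 per library, and the shallowest was WT replicate 1. The smallest level that 3 counts give, the floor used here, lay between 0.0951 and 0.269 CPM (counts per 1000000 counts of a library scaled with TMM factors), for counting error only. Chga had 0 counts in all 6 libraries and therefore does not check the genotype labels. Hepatocyte genes led the libraries, with Alb at 51653 ± 14044 CPM in the WT livers and 44039 ± 12691 CPM in the CgA-KO livers (SD, n = 3 livers each). Among immune cell markers, CgA-KO replicate 2 stood apart: its 11 neutrophil and neutrophil precursor markers summed to 404 CPM, against 55.3 and 67.2 CPM in the other CgA-KO livers and 9.57 to 16.5 CPM in WT. In bulk liver RNA, more cells of a type and more RNA per cell cannot be told apart.

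Cytokines are small secreted proteins through which immune cells address each other and the tissue. In the liver, Kupffer cells, the resident macrophages, are a main source of TNF-α, IL-1 and IL-10, whereas IFN-γ comes from T and NK cells. IL-1α and IL-1β act on one receptor, and the product of Il1rn occupies that receptor without activating it. TNF-α and IL-1 release the transcription factor NF-κB from IκBα, and NF-κB in turn activates Nfkbia, which closes a feedback loop.

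Because Nfkbia and several of the cytokine genes are textbook NF-κB targets, their promoters were searched for a short form of the DNA motif that NF-κB binds, GGNNNTTCC on either strand, in the 250 bases before the transcription start. Promoter sequences are those of RefSeq on GRCm38.p6, and 9 of the 10 genes were matched. Il10 was not matched. Of all 32851 promoters of that length, 15.7% held at least 1 match and 0.0944% held at least 3. Nfkbia held 3 matches, which begin 211, 178 and 29 bases before the start. Tnf held 1 match, 212 bases before the start, and Il6 held 1 at 43 bases. Il1rn, which has 3 listed starts, held 1 match at 50 bases before the most downstream of them. Il1a, Il1b, Il18, Ifng and Tgfb1 held none. The sequences below are the 4 promoters with a match and that of Il1b, the called member with the largest fold change, and capitals mark the matches.
Nfkbia, chr12:55492648-55492897, minus strand: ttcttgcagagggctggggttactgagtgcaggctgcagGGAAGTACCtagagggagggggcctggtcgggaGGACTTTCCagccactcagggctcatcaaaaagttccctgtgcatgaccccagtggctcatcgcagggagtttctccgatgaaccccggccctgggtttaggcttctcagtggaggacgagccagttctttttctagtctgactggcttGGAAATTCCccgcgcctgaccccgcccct
Tnf, chr17:35202008-35202257, minus strand: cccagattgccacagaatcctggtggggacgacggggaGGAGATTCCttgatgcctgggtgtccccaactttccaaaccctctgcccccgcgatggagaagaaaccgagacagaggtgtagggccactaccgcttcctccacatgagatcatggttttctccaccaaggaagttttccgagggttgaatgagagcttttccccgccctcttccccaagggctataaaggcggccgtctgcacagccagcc
Il6, chr5:30012864-30013113, plus strand: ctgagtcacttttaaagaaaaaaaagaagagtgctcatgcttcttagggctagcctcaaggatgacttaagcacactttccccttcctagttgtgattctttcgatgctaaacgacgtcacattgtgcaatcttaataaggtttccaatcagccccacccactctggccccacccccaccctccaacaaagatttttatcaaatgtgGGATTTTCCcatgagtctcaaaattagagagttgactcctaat
Il1rn, chr2:24345121-24345370, plus strand: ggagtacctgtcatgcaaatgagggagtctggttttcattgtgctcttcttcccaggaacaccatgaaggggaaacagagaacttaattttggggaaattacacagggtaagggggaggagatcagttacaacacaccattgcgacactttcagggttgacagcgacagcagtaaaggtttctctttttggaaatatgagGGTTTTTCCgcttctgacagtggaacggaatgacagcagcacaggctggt
Il1b, chr2:129371140-129371389, minus strand: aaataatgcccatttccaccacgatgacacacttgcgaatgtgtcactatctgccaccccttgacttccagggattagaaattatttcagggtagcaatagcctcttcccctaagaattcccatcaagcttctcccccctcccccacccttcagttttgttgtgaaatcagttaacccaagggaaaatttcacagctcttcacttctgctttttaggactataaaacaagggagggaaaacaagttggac
A match is a description of the letters and not of binding. Of the genes in which the genotypes differed in the test that follows, Il1rn held a match and Il1a, Il1b and Tgfb1 held none.

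All 10 genes had a higher mean level in CgA-KO than in WT livers, a direction that 49.4% of all genes tested took in the fit, and 4 of them passed the test: Il1a, Il1b, Il1rn and Tgfb1 rose 3.42- to 5.30-fold. None was lower at that threshold. Calls rest on the quasi-likelihood test of edgeR at an adjusted p-value under 0.05, with Benjamini-Hochberg adjustment across the 13867 genes tested, and 8.60% of those genes were called higher in CgA-KO livers. Leaving out WT replicate 3 left Il1b and Tgfb1 as the called genes, and leaving out CgA-KO replicate 1 left Il1rn and Tgfb1. In 6 of the 10 genes, Il1a, Il1b, Il1rn, Il6, Il10 and Tgfb1, each CgA-KO library lay above each WT library. Of the 8 tested genes it was 5, and such a separation was seen in 19.0% of all genes tested. The separation of Il6 lay under the floor. CgA-KO replicates 2 and 3 held 0.127 and 0.134 CPM of it, and the 3-count floor of WT replicate 1 was 0.269 CPM. Tnf, Il18, Ifng and Nfkbia overlapped between the genotypes. Il6 and Ifng did not pass the filter on low counts and have no fit in that test, and Tnf and Il10 passed it only through their CgA-KO libraries, so that a higher level in these was a condition of their test. The 4 called genes were above the filter in every library. With 3 livers per genotype, the smallest p-value of an exact permutation test on a single gene, two-sided, is 0.1.

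**Figure D1:**
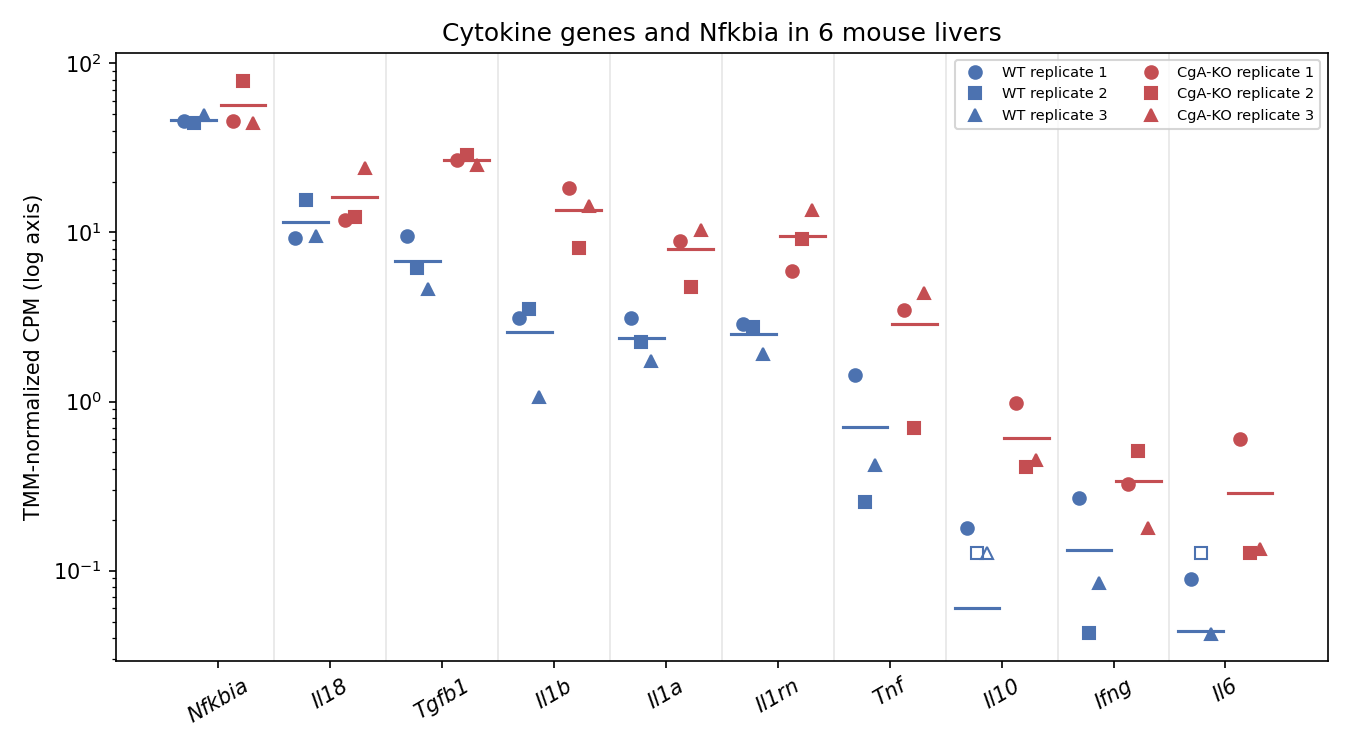
TMM-normalized CPM on a log axis for the 10 genes in each library, with WT in blue, CgA-KO in red, the replicate by symbol, and a line at the mean of each genotype; open symbols stand for 0 counts and are drawn at the 3-count floor of that library. For Tgfb1, Il1b, Il1a and Il1rn the red and blue symbols are apart, while for Nfkbia and Il18 they overlap.

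Il1b, which encodes IL-1β, the secreted cytokine that caspase-1 activates, showed the largest fold change of the called genes. It lies on chromosome 2 of GRCm38 from 129364570 to 129371139, with 7 exons on the minus strand. The WT replicates 1, 2 and 3 held 3.13, 3.53 and 1.06 CPM of it, and the CgA-KO replicates 1, 2 and 3 held 18.2, 8.05 and 14.3 CPM. The lowest CgA-KO liver was 2.28-fold above the highest WT liver. The log2 fold change was 2.41 (standard error 0.470, edgeR adjusted p = 0.0149), a 5.30-fold difference with a 95% interval of 2.54- to 11.1-fold. Without CgA-KO replicate 1 the call was lost at an adjusted p of 0.0518 (edgeR, log2 fold change 2.17). The antisense gene Il1bos overlaps Il1b and had between 2 and 21 counts per library, against 25 to 393 for Il1b.

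Il1a encodes IL-1α, a cytokine that is active without caspase-1 and is released from damaged cells. It lies beside Il1b on chromosome 2, from 129299610 to 129309972. Levels were 3.13, 2.25 and 1.74 CPM in the WT livers and 8.91, 4.79 and 10.4 CPM in the CgA-KO livers, in the order of the replicates. All WT livers lay below every CgA-KO liver. Il1a rose 3.42-fold, with a 95% interval of 1.91- to 6.13-fold and an adjusted p of 0.0183 in edgeR. The call was lost when any one of 4 libraries was left out, with edgeR adjusted p-values of 0.0608 and 0.0890 for the omission of WT replicates 2 and 3, and of 0.0632 and 0.0551 for that of CgA-KO replicates 1 and 3.

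Il1rn encodes the IL-1 receptor antagonist, which blocks both of these cytokines, and it also rose. It lies on the same chromosome but far from them, from 24336853 to 24351494 on the plus strand. WT livers held 2.87, 2.77 and 1.91 CPM and CgA-KO livers 5.94, 9.20 and 13.5 CPM. The log2 fold change was 1.93 (standard error 0.354, edgeR adjusted p = 0.0122), and without WT replicate 3 the adjusted p was 0.0635. The antagonist and the agonists thus differed between the genotypes in the same direction. The ratio of Il1rn to Il1b counts was 0.914, 0.783 and 1.80 in WT and 0.326, 1.14 and 0.944 in CgA-KO livers. These ratios overlapped, with a difference of -0.62 on the log2 scale (exact permutation test, p = 0.6). The ratio of Il1rn to Il1a also overlapped, from 0.914 to 1.23 in WT and from 0.667 to 1.92 in CgA-KO (exact permutation test, p = 0.8).

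Il18 encodes a further member of the IL-1 family, which caspase-1 also activates and which drives IFN-γ release from T and NK cells. It was not called. Its level was 9.31, 15.5 and 9.53 CPM in the WT livers and 11.8, 12.4 and 24.2 CPM in the CgA-KO livers. WT replicate 2 lay above CgA-KO replicates 1 and 2, and CgA-KO replicate 3 was the highest liver. The log2 fold change was 0.49 (standard error 0.332, edgeR adjusted p = 0.374), with an interval from 0.831- to 2.36-fold. Without CgA-KO replicate 3 the log2 fold change was 0.11 (edgeR adjusted p = 0.864). Il18 lies on chromosome 9 from 50554827 to 50581840 and overlaps Bco2 on the opposite strand, which was at 20.2 ± 3.85 CPM in the WT livers and 15.5 ± 2.40 CPM in the CgA-KO livers and was not called (SD, n = 3 livers, edgeR adjusted p = 0.270).

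Tnf, the gene of TNF-α and a first responder of activated macrophages, lies in the major histocompatibility region of chromosome 17, from 35199381 to 35202007. The WT replicates 1, 2 and 3 held 1.43, 0.255 and 0.424 CPM, from 16, 6 and 10 counts. In the CgA-KO replicates, in the same order, it was 3.48, 0.698 and 4.39 CPM, from 75, 22 and 98 counts. CgA-KO replicates 1 and 3 lay above all WT livers, and CgA-KO replicate 2 lay below WT replicate 1. The coefficient of variation was 90.5% among WT and 67.4% among CgA-KO livers, the difference was 4.39-fold with an interval from 1.24- to 15.5-fold before adjustment, and edgeR's adjusted p of 0.118 did not pass. DESeq2, the tool that the methods name, called it (log2 fold change 2.08, adjusted p = 0.0486). Without WT replicate 1, edgeR also called it (3.08, adjusted p = 0.0421). That fit drops the WT liver with the most Tnf and leaves WT replicates 2 and 3, with 6 and 10 counts. In the main fit, Tnf had passed the filter on low counts only through its CgA-KO libraries. The call without WT replicate 1 is therefore not support for a difference. As a description within the same libraries, the tested genes whose log2 CPM followed Tnf most closely over the 6 libraries were Plxnb3 (Pearson's r = 0.994), Ubxn2b (0.993) and Xlr (0.992).

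Il6 encodes the main inducer of the hepatic acute phase response, and it was hardly detected. It had 1, 0 and 1 counts in WT and 13, 4 and 3 counts in CgA-KO livers. The summed counts, 2 against 20, give a ratio of 7.73 after scaling, with an exact binomial interval from 1.88 to 68.2 for counting error only. CgA-KO replicate 1 held 13 of the 20 counts. In an edgeR fit on all genes with a total of at least 1 count, the log2 fold change of Il6 was 2.79 (adjusted p = 0.183), where 5.62% of the genes were called higher.

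Il10, the gene of the cytokine that restrains macrophages, was below the floor of 3 counts in each WT liver. It had 2, 0 and 0 counts in WT and 21, 13 and 10 counts in CgA-KO livers. On the CPM scale this is 0.179, 0 and 0 against 0.975, 0.412 and 0.448. The ratio of summed counts was 17.0, with an exact binomial interval from 4.44 to 145 for counting error only. edgeR placed it on the border of the threshold, where the fitted log2 fold change was 3.84 (standard error 1.08, adjusted p = 0.0507). DESeq2 gave an adjusted p of 0.0435 and limma-voom one of 0.0346. In edgeR and limma-voom, which used the same filter on low counts, Il10 passed it only through its CgA-KO libraries. The p-values of these fits are therefore not support for a difference. Both of the WT counts came from replicate 1, and without that library the WT arm was at 0, so that the edgeR call then made (adjusted p = 0.0172) followed from the filter and the 0 counts and is not support for a difference. The ratio of Il10 to Tnf counts was 0.125, 0 and 0 in WT and 0.280, 0.591 and 0.102 in CgA-KO livers (exact permutation test on log2 of counts plus 1, p = 0.3), and the ratios overlapped.

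Ifng, the gene of IFN-γ, had 3, 1 and 2 counts in WT and 7, 16 and 4 counts in CgA-KO livers. WT replicate 1, at 0.269 CPM, lay above CgA-KO replicate 3 at 0.179 CPM. The summed counts of 6 and 27 give a ratio of 3.48 with an exact binomial interval from 1.41 to 10.3, for counting error only. edgeR on all genes with at least 1 count gave an adjusted p of 0.349 and DESeq2 one of 0.450.

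Tgfb1 encodes TGF-β1, which restrains immune cells and drives matrix production by stellate cells, and of the genes that rose it was the most uniform among CgA-KO livers. It lies on chromosome 7 from 25687002 to 25705077, with 7 exons. TMM-scaled levels were 9.58, 6.17 and 4.66 CPM in the WT livers and 26.8, 28.6 and 24.9 CPM in the CgA-KO livers. The CgA-KO livers lay within a coefficient of variation of 6.93%, and the lowest of them was 2.60-fold above the highest WT liver. The log2 fold change was 2.00 (standard error 0.269, edgeR adjusted p = 0.00484), or 3.99-fold with an interval from 2.62- to 6.08-fold. Whichever single library was left out, Tgfb1 was called, with log2 fold changes from 1.77 to 2.34 and adjusted p-values up to 0.0231 (edgeR).

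Nfkbia, the NF-κB inhibitor gene, did not separate the genotypes. It lies on chromosome 12 from 55489410 to 55492647, and TMM-scaled levels were 45.7, 44.1 and 49.6 CPM in the WT livers and 45.8, 79.1 and 44.5 CPM in the CgA-KO livers. CgA-KO replicates 1 and 3 lay within the WT range, and CgA-KO replicate 2 alone was higher. The log2 fold change was 0.28 (standard error 0.243, edgeR adjusted p = 0.488), with an interval from 0.829- to 1.78-fold. Without CgA-KO replicate 2 it was -0.0059 (edgeR adjusted p = 0.987).

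**Figure D2:**
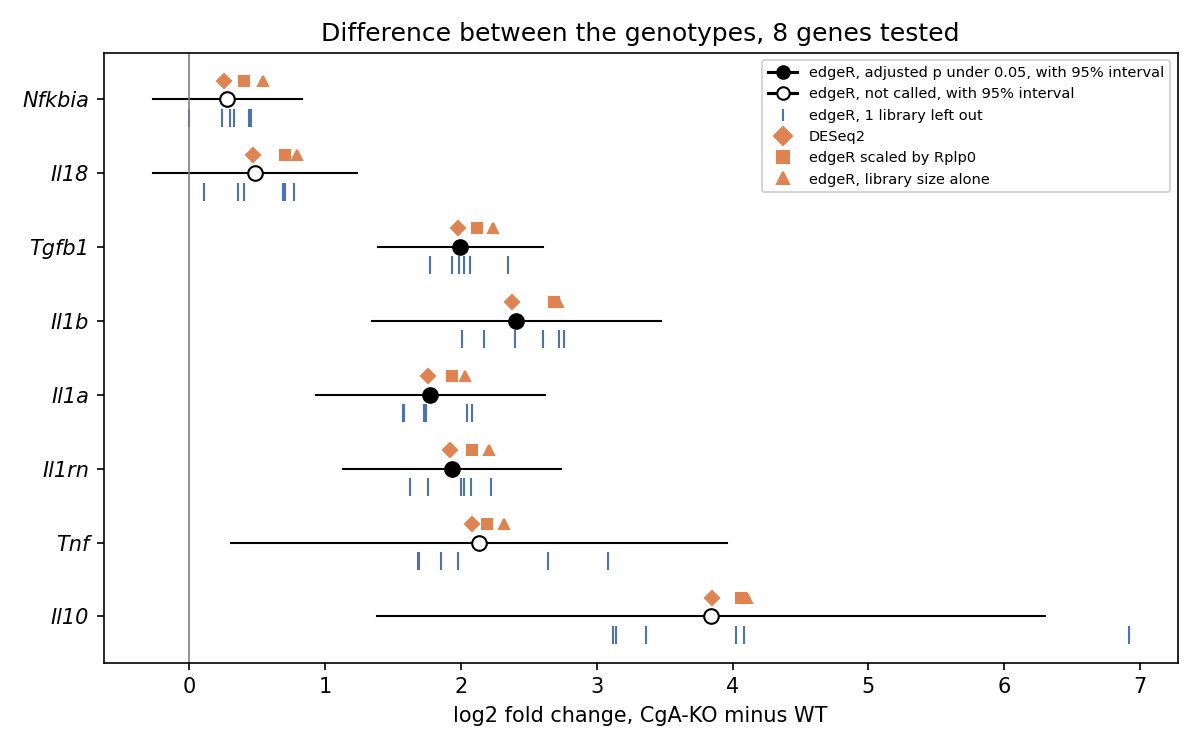
log2 fold change of CgA-KO against WT livers for the 8 genes tested, with edgeR's value and its 95% interval before adjustment (filled where the adjusted p was under 0.05), the 6 fits that each left out 1 library as blue ticks, and DESeq2, Rplp0 scaling and library size alone in orange. Tgfb1 has the narrowest interval of the 4 called genes, and the interval of Il10 runs from 1.38 to 6.30.

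The order of the levels was compared after division by the length of the longest coding transcript in GENCODE M21. In WT livers the CPM per kilobase fell from Nfkbia (29.5 ± 1.80) and Il18 (12.9 ± 3.99) to Tgfb1 (3.13 ± 1.16), Il1b (1.90 ± 0.979), Il1a (1.20 ± 0.358), Il1rn (1.02 ± 0.213), Tnf (0.430 ± 0.389), Ifng (0.109 ± 0.0996), Il10 (0.0456 ± 0.0789) and Il6 (0.0188 ± 0.0191) (SD, n = 3 livers). Only the steps from Nfkbia to Il18 and from Il18 to Tgfb1 lay outside the spread of the WT libraries. In CgA-KO livers the order was the same except that Il10 (0.467 ± 0.240) stood before Ifng (0.279 ± 0.136), a pair whose libraries overlapped. There Tgfb1 reached 12.3 ± 0.854 and Il1b 9.99 ± 3.79, which overlapped each other, and Il1b lay above Il1a (4.07 ± 1.47) without overlap.

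The livers of one genotype did not rank alike across the genes. WT replicate 1 was the highest WT liver in 7 of the 10 genes. It also held the most immune cell marker RNA among WT livers, with macrophage markers at 368 CPM against 168 and 152 CPM, T and NK cell markers at 19.6 CPM against 5.02 and 6.95 CPM, and B cell markers at 51.4 CPM against 5.19 and 8.17 CPM in WT replicates 2 and 3. The part of these differences in the cytokine values was not tested. CgA-KO replicate 2 was the lowest CgA-KO liver in 5 genes, Tnf, Il1a, Il1b, Il6 and Il10, and the highest in Ifng, Tgfb1 and Nfkbia. CgA-KO replicate 2 was also the liver with the most T and NK cell marker RNA, with the 15 markers at 196 CPM against 59.7 and 60.4 CPM in the other CgA-KO livers and 5.02 to 19.6 CPM in WT. The sum does not stand for each marker. Most were highest in CgA-KO replicate 2, but Cd4, Gzma and Ncr1 were lowest there among CgA-KO livers. In CgA-KO replicates 1, 2 and 3, Cd4 had 566, 62 and 367 counts, Gzma 27, 8 and 176, and Ncr1 11, 0 and 1. Of the 15 markers 14 were tested, 12 of them only through the CgA-KO libraries, and 7 were called higher, against 8.60% of all genes tested. Of the 7 called, 6 had passed the filter only through the CgA-KO libraries. The number called was 0 without WT replicate 2, without WT replicate 3 and with limma-voom, and 3 without CgA-KO replicate 2. Ifng amounted to 13.7, 8.47 and 12.2 counts per 1000 T and NK marker counts in WT and to 5.45, 2.59 and 2.97 in CgA-KO livers, a comparison added after the data were seen (exact permutation test on log2 ratios, p = 0.1). The WT ratios rest on 3, 1 and 2 Ifng counts. The marker sum that divides them was higher in every CgA-KO liver, and the markers were chosen with earlier results known. This test therefore cannot decide whether Ifng differed, and the ratios are a description.

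The qPCR of the study expressed each gene relative to Rplp0, a ribosomal protein gene, so the counts were also expressed in that way. Rplp0 itself was at 425, 743 and 460 CPM in the WT livers and 401, 501 and 488 CPM in the CgA-KO livers and was not called (edgeR adjusted p = 0.628). WT replicate 2 was the highest of all 6 libraries. Per 10000 Rplp0 counts, Tnf had 33.8, 3.44 and 9.21 counts in WT and 86.8, 13.9 and 90.0 in CgA-KO livers, a ratio of means of 4.11 (exact permutation test, p = 0.2). Ccl2, a chemokine of the same panel that attracts monocytes, had 27.4, 10.3 and 8.29 against 57.9, 22.8 and 197, a ratio of 6.03 (exact permutation test, p = 0.2). For Ifng the ratio of means was 2.51 (exact permutation test, p = 0.2), and for Il10 it was 9.89 (exact permutation test, p = 0.1). In the 4 genes the mean was higher in CgA-KO livers, and only Il10 was without overlap. Il18, with 207 to 219 counts in WT and 247 to 495 in CgA-KO livers per 10000 Rplp0 counts, did not overlap on this scale (exact permutation test, p = 0.1). Scaling by Rplp0 placed the median of all genes tested at 0.15 on the log2 scale and scaling by library size alone at 0.26, against -0.01 with TMM. With edgeR scaled by Rplp0, Il1a, Il1b, Il1rn and Tgfb1 were still called, with adjusted p-values from 0.0175 to 0.0470.

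**Figure D3:**
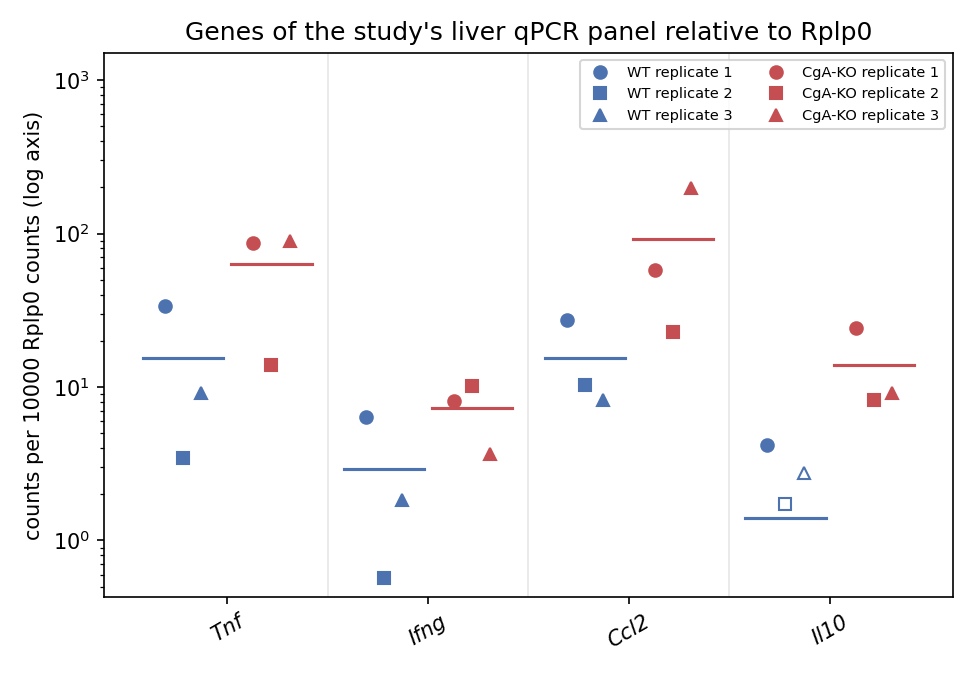
Counts of Tnf, Ifng, Ccl2 and Il10 per 10000 counts of Rplp0 in the same library, on a log axis, with WT in blue, CgA-KO in red and lines at the means; open symbols stand for 0 counts and are drawn where 3 counts would lie. CgA-KO replicate 2 lies below WT replicate 1 for Tnf and Ccl2.

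Markers of Kupffer cells and macrophages moved with the cytokine genes. Of 13 such markers, all tested, 11 were called higher and none lower, where 8.60% of all genes tested were called higher and 3.84% lower. The median log2 fold change of the markers was 3.02, against -0.01 over all genes tested. Adgre1, the gene of F4/80, rose from 4.15 ± 2.24 to 48.8 ± 17.7 CPM (edgeR adjusted p = 0.00322), and Cd5l, Timd4 and Vsig4 had log2 fold changes of 3.59, 3.57 and 3.35. The 2 markers not called, Marco and Cd163, overlapped between the genotypes. Marco had 15, 105 and 337 counts in WT and 3, 1810 and 24 in CgA-KO livers, so that its higher mean came from CgA-KO replicate 2. Cd163 had 23, 59 and 248 against 78, 627 and 229 counts. The sum of the 13 markers was 368, 168 and 152 CPM in the WT livers and 2173, 2043 and 1519 CPM in the CgA-KO livers. Of 10 hepatocyte markers 0 were called by edgeR, with 2 at an unadjusted p under 0.05, 2 called by DESeq2 and 1 by limma-voom.

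The other marker lists moved to different degrees, where 8.60% of all genes tested were called higher and 3.84% lower. Of 9 monocyte markers, 5 were called higher, 1 of which, Chil3, had passed the filter on low counts only through the CgA-KO libraries. The 9 markers summed to 13.2 to 30.9 CPM in the WT livers and 61.1 to 236 CPM in the CgA-KO livers. Of 7 neutrophil markers tested, 3 were called higher, 1 of which, Retnlg, had passed the filter only through the CgA-KO libraries. Of 6 stellate cell markers 3 were called higher, Reln, Dcn and Rgs5, and of 6 markers of the sinusoidal endothelium Lyve1 was called higher and Clec4g lower. The 7 B cell markers summed to 62.1, 19.8 and 14.2 CPM in CgA-KO replicates 1, 2 and 3, 5 of them were tested, and edgeR called 0 of them, with 1 at an unadjusted p under 0.05 and 1 called by DESeq2 and by limma-voom. With 1 library left out, 3 to 6 monocyte, 0 to 5 neutrophil and 1 to 3 stellate cell markers were called. The fewest monocyte markers were called without WT replicate 2, the fewest neutrophil markers without WT replicate 3, and 1 stellate cell marker when WT replicate 3, CgA-KO replicate 1 or CgA-KO replicate 2 was left out. In no list was a marker at 0 in all 6 libraries.

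Set against these markers, the cytokine genes were lower or overlapping, not higher, in CgA-KO livers. The marker sum was 152 to 368 CPM in WT and 1519 to 2173 CPM in CgA-KO livers. A gene that was flat or rose less than this comes out lower by arithmetic. These ratios, and those over Csf1r, itself a marker, are therefore a description only. Per 1000 macrophage marker counts, Tgfb1 had 26.0, 36.8 and 30.7 counts in WT and 12.3, 14.0 and 16.4 in CgA-KO livers, a difference of -1.13 on the log2 scale without overlap (exact permutation test, p = 0.1, the smallest possible). Il1a had 8.51, 13.5 and 11.5 against 4.10, 2.34 and 6.85, also without overlap (exact permutation test, p = 0.1). Il1b had 8.51, 21.1 and 6.98 against 8.39, 3.94 and 9.44, which overlapped (exact permutation test, p = 0.5). The shift of Tgfb1 and Il1a against the markers was thus opposite to their shift in CPM. Il1rn overlapped (exact permutation test, p = 0.2), with 8.91 in CgA-KO replicate 3 and 7.78 in WT replicate 1, and so did Tnf (exact permutation test, p = 0.2). Nfkbia and Il18 were lower in CgA-KO without overlap, at 21.1 to 38.7 against 124 to 327 and at 5.43 to 15.9 against 25.3 to 92.6. Ifng, at 4 to 16 counts per CgA-KO library and 3, 1 and 2 counts in WT, was barely without overlap. Its highest CgA-KO value was 0.248, in replicate 2, and its lowest WT value was 0.254, in replicate 2, which rested on 1 count. Il6 and Il10 overlapped. With Csf1r, the receptor of the macrophage growth factor, as the only denominator, a choice made after the data were seen, Tgfb1, Il1a and Il18 overlapped (exact permutation test, p = 0.2 each), as did Tnf, Il1b, Il1rn and Il10. Nfkbia and Ifng were lower in CgA-KO without overlap on that denominator (exact permutation test, p = 0.1 each). For Il6, with 1, 0 and 1 counts in WT, this held only for the log2 ratios of counts plus 1 (exact permutation test, p = 0.1). Its plain counts per 1000 Csf1r counts overlapped, at 1.46, 0 and 3.14 in WT and 1.65, 0.669 and 1.18 in CgA-KO livers. The part of the marker differences in the cytokine values was not tested.

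**Figure D4:**
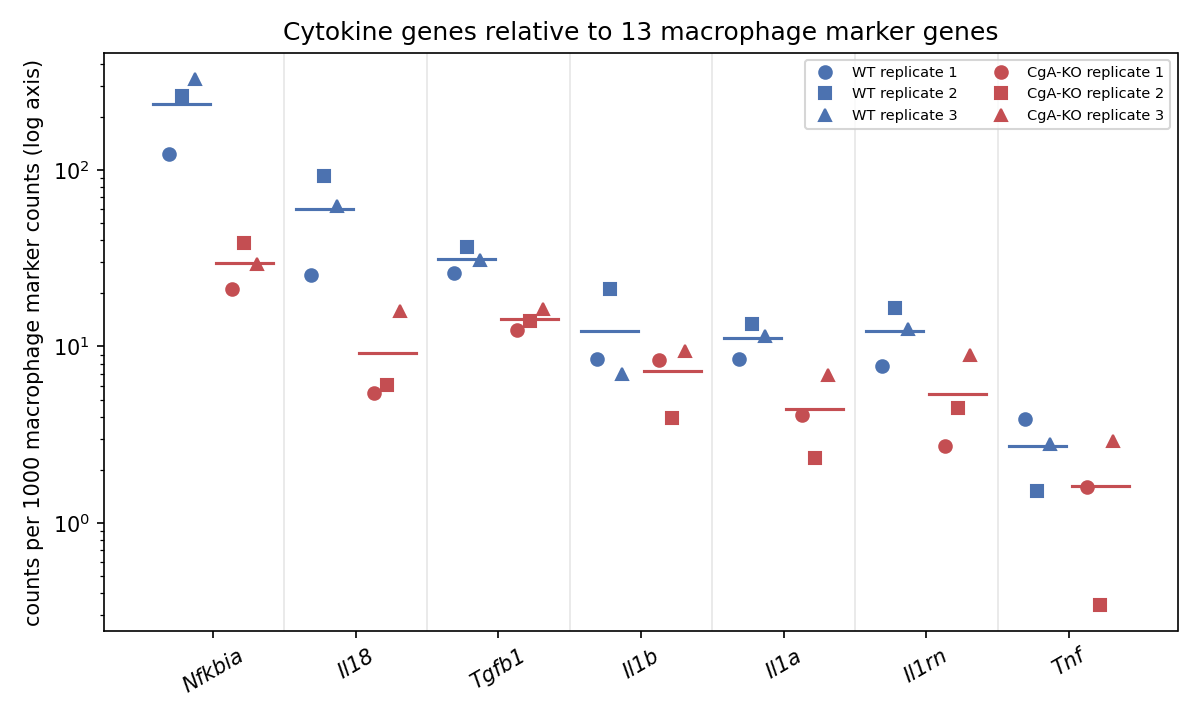
Counts of 7 of the genes per 1000 summed counts of 13 macrophage marker genes in the same library, on a log axis, with WT in blue, CgA-KO in red and lines at the means. The CgA-KO symbols lie below the WT symbols for Nfkbia, Il18, Tgfb1 and Il1a and overlap them for Il1b, Il1rn and Tnf.

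The genes that read these cytokines out went with them in part. Of 17 receptor genes, all tested, 6 rose (8.60% over all genes tested) and none fell (3.84%), with a median log2 fold change of 0.44. Of these 6, Il18rap, Il18r1 and Il1r2 passed the filter on low counts only through the CgA-KO libraries, and their counts are therefore given as a description. Il18rap, a subunit of the IL-18 receptor, had 4, 10 and 13 counts in WT and 101, 580 and 38 in CgA-KO livers, and Il18r1, the other subunit, had 5, 21 and 10 against 93, 559 and 59. CgA-KO replicate 2 held most of both. Il1r2, a decoy receptor for IL-1, had 1, 2 and 0 against 15, 18 and 14 counts. Il10ra rose 4.93-fold (edgeR adjusted p = 0.00703). Il1r1, the signalling receptor of IL-1, was singled out after its values were seen: 66.8 ± 23.6 CPM in WT livers stood against 29.7 ± 13.6 CPM in CgA-KO livers, without overlap, and the gene was not called (edgeR adjusted p = 0.0681).

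Of 15 genes that process, store or neutralise the cytokines, 7 rose (8.60% over all genes tested) and none fell (3.84%). The median log2 fold change of the list was 1.70. Aim2, a sensor that assembles an inflammasome in which caspase-1 is activated, rose 6.54-fold (edgeR adjusted p = 0.00411). Il18bp, which neutralises IL-18, rose from 6.27 ± 1.56 to 32.8 ± 17.8 CPM (edgeR adjusted p = 0.00778). Nlrp3, a further inflammasome sensor, and Thbs1, whose product can activate latent TGF-β, were called but passed the filter only through the CgA-KO libraries. Nlrp3 had 31, 13 and 9 counts in WT and 285, 139 and 150 in CgA-KO livers, and Thbs1 had 8, 7 and 13 against 67, 462 and 113.

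The NF-κB genes other than Nfkbia were divided into subunits with their kinases and feedback genes. The list of subunits and kinases also holds adaptors such as Tab1, and the feedback list also holds target genes such as Icam1. Over all genes tested, 8.60% were called higher and 3.84% lower. Of the 17 subunit and kinase genes, 4 rose and none fell: Relb, Tab1, Nfkb2 and Nfkb1, between 1.69- and 3.61-fold. Of 15 feedback genes, 14 were tested and 5 rose. Tnfaip3, which encodes the inhibitor A20, rose from 2.96 ± 1.26 to 10.5 ± 2.44 CPM (edgeR adjusted p = 0.0126), and Traf1, Irak3 and Icam1 rose 4.01-, 3.22- and 2.23-fold. Nfkbia, the feedback gene among the 10, was not called.

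Ifng was hardly detected, and most of the genes that respond to IFN-γ rose. Of 15 such genes, 13 were tested, 10 rose and none fell, with a median log2 fold change of 1.73. The shares over all genes tested, to be set beside each list here, were 8.60% called higher and 3.84% lower. Cxcl10 and Cxcl9, chemokines for T cells, rose 6.78- and 4.25-fold, Cd274, the gene of PD-L1, 6.20-fold and Gbp2 4.38-fold (edgeR adjusted p from 0.00581 to 0.0302). Several of these genes also respond to type I interferon. Of 15 genes that respond to IL-6, 3 rose, Lcn2, Orm2 and Socs3, and the median was 0.09, which was -0.05 without CgA-KO replicate 3. Of 14 TGF-β response genes, 13 were tested and 3 rose, Tgfbi (2.38-fold), Skil and Id1, with a median of 0.77.

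The counts of called pathway genes depended on single libraries, as did the count over all genes. Without WT replicate 3, where 394 genes were called instead of 1726, the called genes numbered 3 receptors, 2 processing and decoy genes, 0 NF-κB subunits and kinases, 1 NF-κB feedback gene, 3 IFN-γ, 1 IL-6 and 0 TGF-β response genes. Without WT replicate 2 they numbered 3, 4, 0, 2, 4, 1 and 2 in the same order, and without CgA-KO replicate 1 they numbered 5, 4, 0, 2, 7, 3 and 1. Without CgA-KO replicate 2 the NF-κB subunits and kinases fell to 1, the IFN-γ response genes to 5 and the IL-6 response genes to 1, and without CgA-KO replicate 3 the NF-κB subunits and kinases fell to 2. Without WT replicate 1 the TGF-β response genes called rose to 7. With Rplp0 scaling 4 processing and decoy genes, 0 NF-κB subunits and kinases, 1 NF-κB feedback gene and 1 TGF-β response gene were called. Of the macrophage markers, 8 to 11 were called in each of these fits.

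**Figure D5:**
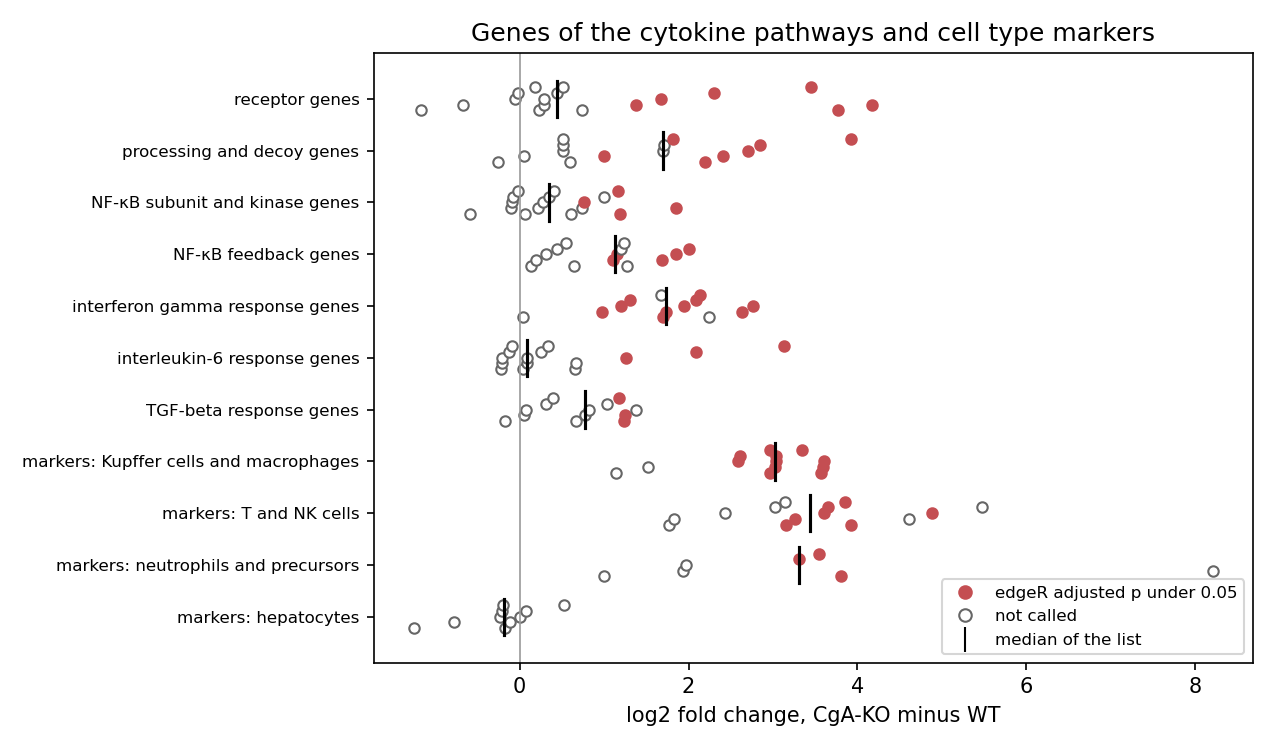
log2 fold change of CgA-KO against WT livers for the tested genes of 7 pathway lists and 4 marker lists, each point a gene, filled where edgeR's adjusted p was under 0.05, with a bar at the median of the list. The medians of the macrophage, T and NK cell and neutrophil markers lie farther to the right than those of the pathway lists, while single genes of both kinds overlap. The hepatocyte median lies at -0.19, with Serpina1c at -1.25.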

How the data were processed

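Liver RNA-seq libraries of 3 WT and 3 CgA-KO mice were compared, with groups and replicate numbers from the sample labels. Each library was taken as a separate mouse, because the study's methods give 3 mice of each genotype. The deposited values are whole-number gene counts. The authors made these counts with Salmon 1.4.0 at the transcript level on GRCm38, and how transcripts were summed to genes and whether strand was used are not given in the sources used here. Reads of overlapping or antisense genes (Il1a with Gm14023, Il1b with Il1bos, Il18 with Bco2 and Tex12, Ifng with Gm49751) may therefore be shared, which was not tested. The study's methods name DESeq2, which served here as an alternative. Depth ranged from 10558616 to 31087453 counts per library, and replicates of a group differed beyond sampling noise (chi-square of 29.9 to 190 per degree of freedom).

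Counts were fitted with edgeR 4.0.16 in R 4.3.3 (filterByExpr with a minimum count of 10, TMM factors, robust quasi-likelihood test, Benjamini-Hochberg adjustment over all genes tested, threshold 0.05). Standard errors were computed from the F statistic as the log2 fold change over √F, and the 95% intervals are not adjusted. Ratios between genes used log2 of counts plus 1. Permutation tests were exact and two-sided, and none of them can pass 0.05 with 3 against 3. The floor was 3 counts. Alternatives were DESeq2 1.42.0, limma-voom (limma 3.58.1), other scalings and filters, the replicate block and leaving out each library. Plots were made in Python 3.11.15 (matplotlib 3.10.9). Gene positions are from GENCODE M21 (GRCm38) and promoters from RefSeq (GRCm38.p6).

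The 10 genes and the pathway and marker lists were chosen with earlier results of these data known. From each pathway list the text names up to 4 called genes with the largest fold change, and genes named outside this rule are identified as such or serve as checks.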

Additional observations from a re-analysis of the deposited data

How the results depend on the processing

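Of the 10 genes, 4 were called by edgeR, and 6 by DESeq2, 5 by limma-voom, 5 with all genes of at least 1 count, and 4 under library size, upper-quartile factors, Rplp0 scaling, at least 10 counts in every library (where Tnf and Il10 dropped out) and the replicate block. The 5 of limma-voom include Il10, which had passed the filter on low counts only through its CgA-KO libraries. Leaving out 1 library gave 2 to 6, all higher. Over all genes, the 1726 calls became 2592 with DESeq2 (958 lower) and 761 with Rplp0 scaling (633 higher, 128 lower), with 200 lower calls under library size alone, and leaving out 1 library gave 394 to 2126 calls, 276 to 1563 higher and 118 to 563 lower. The higher share of calls was 69.1% with TMM, 86.6% with library size and 83.2% with Rplp0 scaling. The labels number replicates 1 to 3 in both groups, but same-numbered libraries did not deviate together (correlations 0.20, 0.01 and -0.07), so the numbers were not taken as pairs, and the fit with the replicate block called 1498 genes.

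Over 13 alternatives each, the adjusted p of Tnf lay between 0.0421 and 0.334 and that of Il10 between 0.0172 and 0.195, and the cause was not tested. Other values changed sign. Nfkbia was at -0.0059 without CgA-KO replicate 2 and reached 0.45 when another library was left out. The IL-6 response median was -0.0016 with limma-voom, -0.016 with the replicate block and -0.050 to 0.38 with 1 library left out, the former without CgA-KO replicate 3. The B cell median was -0.50, -0.41 and -1.04 without WT replicate 2, WT replicate 3 and CgA-KO replicate 1, and 1.96 without WT replicate 1. The endothelial median was 0.11 with library size, 0.011 with Rplp0 scaling and 0.016 to -0.30 with 1 library left out, and the hepatocyte median 0.11 and 0.0043 with these scalings. The log2 ratio of Il1rn to Il1a ran from -0.20 (CgA-KO replicate 2 omitted) to 0.56, and that of Il10 to the macrophage markers lay between -0.49 and 0.27 with 1 library left out (0.27 with WT replicate 1 and 0.068 with CgA-KO replicate 2 omitted). At this depth Il6, Il10 and Ifng lay at 0 to 21 counts per library, and their differences rest on few reads.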
